A study of Mus musculus with 12 samples.

Results

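Histone genes were followed in macrophages that had entered neuroblastoma spheres and in those left outside them. The genes were taken by symbol from the platform annotation: every probe set with a single symbol of the H1, H2A, H2B, H3 or H4 families, with the brightest probe set kept for each gene. This gave 26 of the 17097 genes on the array, read by 38 probe sets. Of these 26 genes, 17 are replication-dependent, 5 are core variants (H2ax, H2az1, H2az2, H3f3a and H3f3b), 1 is the linker variant H1f10 and 3 are germ-line linker histones (H1f6, H1f7 and H1f8). A gene was tested where it exceeded 2.77 on the log2 scale, the 40th percentile of all values, on at least 3 arrays. That left 24 of the 26, with the replication-dependent H1f4 and the germ-line H1f7 given as values only. H4c11 passed this filter through the 3 outside arrays at 48 h alone, the group where it is high, so it is left out of the counts of called members, and its values are given without a test.

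Spheres of TT9423, a mouse neuroblastoma line, were grown on agar and given macrophages made from C57BL/6 bone marrow, and 12 Affymetrix arrays were made from 4 groups of 3. The groups are in-sphere and outside macrophages at 24 h, and in-sphere and outside macrophages at 48 h. All 4 groups had been cultured with TT9423 cells, and arrays of macrophages or of tumour cells cultured alone were not analysed here. In-sphere cells had passed through enzymatic digestion and a CD11b magnetic column, and the sources used here do not give whether outside cells were treated likewise. The titles give 24 h or 48 h, while the shared protocol speaks of 24 h for every sample. Each array holds cells pooled over several wells of 1 of 3 independent experiments, and the replicate number was taken as the experiment.

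Replication-dependent histone genes supply the nucleosomes of newly copied DNA and are transcribed mainly in S phase. Their mRNAs are the textbook exception to polyadenylation: they have no introns and usually end in a stem-loop bound by SLBP, although polyadenylated forms of many of them are known, in particular in differentiated cells. Most variant histone genes are transcribed through the cell cycle into mRNAs with poly(A) tails. H2ax is an exception, known to give both a stem-loop mRNA of the replication-dependent kind and a polyadenylated one. The arrays were labelled with a 3' in vitro transcription kit that primes on poly(A), so that a stem-loop mRNA without a tail is poorly copied. Differences in these histone genes are therefore differences in the labelled RNA, and how much of it was polyadenylated was not measured. In bulk RNA, fewer cells expressing a gene and less RNA per cell cannot be told apart.

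In spheres, most of the replication-dependent genes had lower values than outside. Of the 15 replication-dependent genes tested apart from H4c11, 9 were lower and 1 was higher than outside at 24 h, and 12 were lower and 1 higher at 48 h (limma, Benjamini-Hochberg adjusted p under 0.05 over 12488 genes). Of all tested genes, 13.6% were called lower and 15.8% higher at 24 h, and 22.3% lower and 15.2% higher at 48 h. Of the 5 core variants, 1 was lower and 0 higher at 24 h, while 3 were higher and 0 lower at 48 h. The median difference over all 17 replication-dependent genes was -0.40 at 24 h and -0.83 at 48 h on the log2 scale, and -0.47 and -0.75 without H4c11. Over the 5 variants it was -0.13 and 0.55, and over all tested genes -0.01 and -0.10. No test was made on either class as a whole. The comparison at each time has its own arrays, but both use an estimate of the spread shared by all arrays. Replicate numbers were taken as the same experiments at both times, so the times are not independent.

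**Figure D1:**
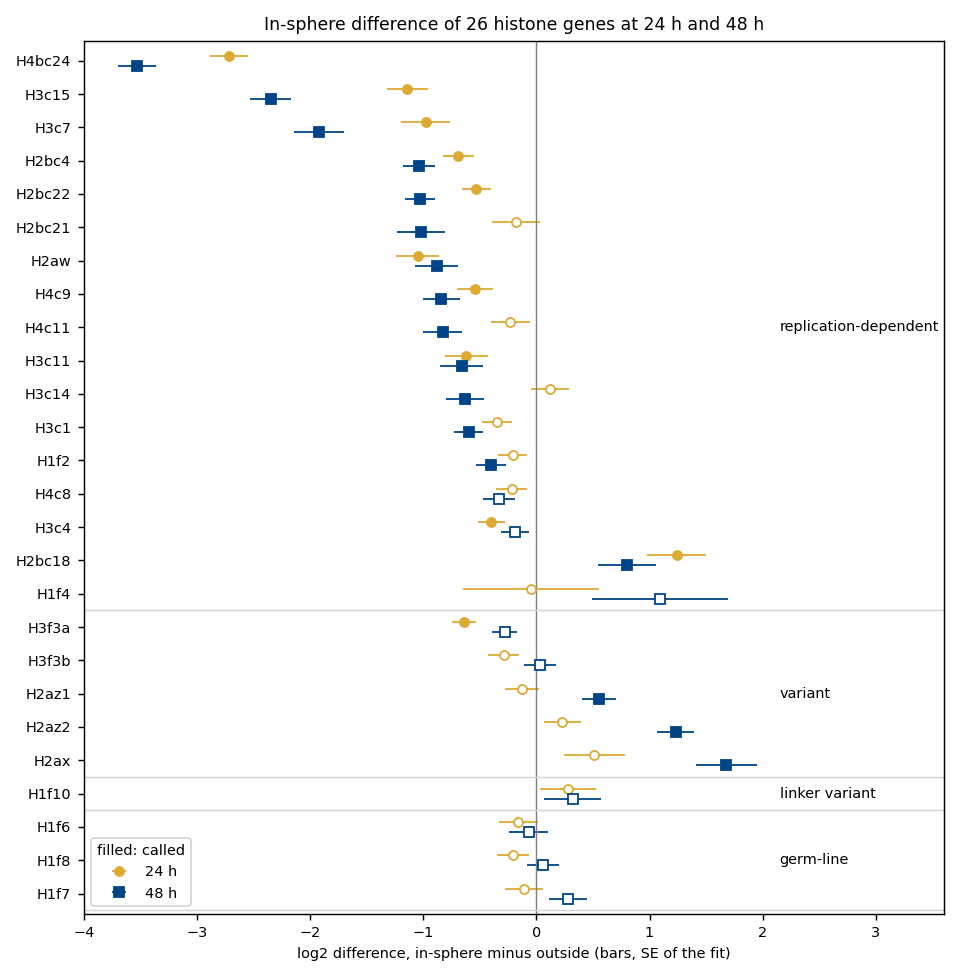
The log2 difference of in-sphere minus outside macrophages (horizontal axis) is plotted for the 26 histone genes at 24 h (circles) and 48 h (squares), with the standard error of the fit as bars and filled symbols for genes with an adjusted p under 0.05, H4c11 at 48 h among them. Among the replication-dependent genes, 15 of 17 lie below 0 at each time, while H2ax, H2az1 and H2az2 lie above 0 at 48 h.

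The replication-dependent gene with the largest difference was H4bc24, which RefSeq also lists as Hist1h2br, a name of the H2B family. Its log2 values were 3.01, 3.36 and 3.03 in spheres and 5.84, 6.04 and 5.69 outside at 24 h. At 48 h they were 3.24, 3.74 and 3.52 in spheres and 6.91, 7.31 and 6.87 outside. All in-sphere arrays lay below all outside arrays at both times, with the in-sphere arrays close to the level of 2.77. The gene was 6.60-fold lower at 24 h (log2 difference -2.72, SE 0.17, adjusted p = 1.39e-06 by limma) and 11.5-fold lower at 48 h (-3.53, SE 0.17, adjusted p = 1.66e-07). H4bc24 was also the single member called between times outside the spheres, as described with the time comparisons.

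H2B forms the dimer with H2A in the nucleosome, and of its 4 further genes 2 were lower in spheres at 24 h and 3 at 48 h, with H2bc18 higher at both times. Over all tested genes, 13.6% were called lower and 15.8% higher at 24 h, and 22.3% lower and 15.2% higher at 48 h. H2bc4 (formerly Hist1h2bc) had log2 values of 9.80, 10.08 and 10.22 in spheres and 10.68, 10.71 and 10.78 outside at 24 h, and 9.95, 10.24 and 10.30 against 11.08, 11.29 and 11.25 at 48 h. The groups did not overlap, and the difference was -0.69 at 24 h (SE 0.14, adjusted p = 0.00247 by limma) and -1.04 at 48 h (SE 0.14, adjusted p = 9.71e-05). H2bc22 (Hist1h2bp) had 9.97, 9.95 and 9.93 in spheres and 10.53, 10.39 and 10.52 outside at 24 h. The 48 h values were 9.66, 10.05 and 10.07 against 10.80, 11.10 and 10.96. Its difference was -0.53 at 24 h (SE 0.13, adjusted p = 0.00873 by limma) and -1.03 at 48 h (SE 0.13, adjusted p = 8.39e-05), again without overlap. The outside arrays of both genes were higher at 48 h than at 24 h, while the in-sphere arrays of both times overlapped.

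H2bc21 (Hist2h2be) lay near the level of 2.77, with 2.46, 2.76 and 3.13 in spheres and 3.23, 2.86 and 2.81 outside at 24 h. These groups overlapped, and the difference of -0.18 did not pass the test (adjusted p = 0.584 by limma). At 48 h the values were 2.79, 2.55 and 2.55 in spheres and 4.07, 3.55 and 3.33 outside, a difference of -1.02 (SE 0.21, adjusted p = 0.00241 by limma). The remaining H2B gene, H2bc18 (Hist2h2bb), was the only replication-dependent gene called higher in spheres. Its values were 4.09, 4.57 and 3.53 in spheres against 2.61, 2.63 and 3.22 outside at 24 h, and 3.87, 3.95 and 3.32 against 2.83, 3.02 and 2.87 at 48 h. The groups did not overlap at either time, although the third experiment had the smallest gap at both. H2bc18 was higher by 1.24 at 24 h (SE 0.26, adjusted p = 0.00325 by limma) and by 0.80 at 48 h (SE 0.26, adjusted p = 0.0263). The call at 48 h was lost without in-sphere replicate 1 (adjusted p = 0.0771 by limma) or 2 (0.0874) and without outside replicate 1 (0.0734) or 3 (0.068).

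The upstream sequences of 3 of these genes are shown because their levels went the same way or opposite ways. RefSeq (GRCm38.p6) gave the 250 bases before the gene start for 21 of the 26 members. H4bc24 (chr13:21833493-21833742, plus strand) and H2bc22 (chr13:21787238-21787487, plus strand) lie in the large histone cluster and were both lower in spheres, and H2bc18 (chr3:96269450-96269699, plus strand) was higher. They are written 5′ to 3′ with matches on either strand in capitals. The motifs marked are the CCAAT box, the TATA box and the octamer, an element known from H2B promoters.
H4bc24: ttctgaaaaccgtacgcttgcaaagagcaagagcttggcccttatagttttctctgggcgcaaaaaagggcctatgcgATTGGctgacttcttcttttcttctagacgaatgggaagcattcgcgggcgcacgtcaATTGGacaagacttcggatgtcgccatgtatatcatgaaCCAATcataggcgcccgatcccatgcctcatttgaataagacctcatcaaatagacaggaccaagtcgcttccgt
H2bc22: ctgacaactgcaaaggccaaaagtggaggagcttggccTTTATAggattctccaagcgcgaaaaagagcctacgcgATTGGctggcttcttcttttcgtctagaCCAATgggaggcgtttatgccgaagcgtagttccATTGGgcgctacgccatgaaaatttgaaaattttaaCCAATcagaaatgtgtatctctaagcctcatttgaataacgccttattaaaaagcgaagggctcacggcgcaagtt
H2bc18: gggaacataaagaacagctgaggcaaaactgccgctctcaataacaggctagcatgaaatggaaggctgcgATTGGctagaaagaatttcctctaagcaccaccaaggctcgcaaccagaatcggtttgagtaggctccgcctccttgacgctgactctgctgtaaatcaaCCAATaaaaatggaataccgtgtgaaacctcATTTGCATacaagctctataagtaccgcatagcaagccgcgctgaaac
H4bc24 and H2bc22 matched at 170 of 257 aligned positions, or 66.1%. H2bc18 matched H2bc22 at 139 of 263, or 52.9%, and H4bc24 at 130 of 265, or 49.1%. Whether likeness of these sequences goes with the direction in spheres was not tested. The median over 78 pairs of replication-dependent genes was 45.2%. A match of letters is a description and not a bound site.

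The motifs were searched by their letters on both strands of the same 250 bases, with 0 overlapping matches. The CCAAT box, searched as these letters, was found in 8 of 13 replication-dependent genes and in 4 of 4 core variants, against 33.8% of 32851 promoters. The TATA box, searched as TATAAA, was found in 5 of 13 and in 1 of 4, against 12.4%. The octamer, searched as ATTTGCAT, was found in the replication-dependent H2aw and H2bc18 and in the variant H3f3b, against 1.6% of promoters. The H1 box of linker histone promoters, searched as AAACACA, was found in H1f2, H1f4, H3f3a and the germ-line H1f6, against 6.25%. Of the replication-dependent genes with the octamer, H2aw was lower in spheres and H2bc18 was higher.

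H2aw (Hist3h2a) is the only replication-dependent H2A gene among the members. It had 7.14, 7.35 and 7.45 in spheres and 8.44, 7.95 and 8.69 outside at 24 h, and 7.36, 7.69 and 7.54 against 8.42, 8.19 and 8.62 at 48 h. All outside arrays were above all in-sphere arrays, and the levels of both times covered similar ranges. The difference was -1.05 at 24 h (SE 0.19, adjusted p = 0.00126 by limma) and -0.88 at 48 h (SE 0.19, adjusted p = 0.00287).

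Of the 6 replication-dependent H3 genes, 4 were lower at 24 h and 5 at 48 h, against 13.6% and 22.3% of all tested genes. H3c15 (Hist2h3c2) had 4.17, 4.12 and 4.61 in spheres against 5.71, 5.31 and 5.31 outside at 24 h. The 48 h arrays had 3.74, 3.96 and 3.93 against 6.01, 6.11 and 6.55. The gap between the groups was wider at 48 h, with lower in-sphere and higher outside values than at 24 h. It was 2.21-fold lower at 24 h (log2 difference -1.14, SE 0.18, adjusted p = 5.98e-04 by limma) and 5.08-fold lower at 48 h (-2.35, SE 0.18, adjusted p = 2.78e-06).

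H3c7 (Hist1h3f) had 4.17, 4.82 and 4.40 in spheres and 5.27, 5.72 and 5.34 outside at 24 h, and 4.53, 4.52 and 3.85 against 6.01, 6.42 and 6.21 at 48 h. It did not overlap between groups, with a difference of -0.98 at 24 h (SE 0.22, adjusted p = 0.00522 by limma) and -1.92 at 48 h (SE 0.22, adjusted p = 3.79e-05). H3c11 (Hist1h3i) was lower by smaller amounts at both times, with differences of -0.62 (SE 0.19, adjusted p = 0.0291 by limma) and -0.66 (SE 0.19, adjusted p = 0.0172). The 48 h call of H3c11 was lost without in-sphere replicate 3 (adjusted p = 0.0508 by limma). H3c4 (Hist1h3d) was lower at 24 h only by the threshold, -0.40 (SE 0.12, adjusted p = 0.0291 by limma) against -0.19 at 48 h (adjusted p = 0.246), and the change between times did not pass the test (interaction 0.21, adjusted p = 0.668).

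H3c1 (Hist1h3a) had a difference of -0.35 at 24 h (SE 0.13, adjusted p = 0.0631 by limma, and 0.0379 with the replicate number as a block) and of -0.60 at 48 h (SE 0.13, adjusted p = 0.00354). H3c14 (Hist2h3c1) had 6.66, 6.76 and 6.51 in spheres and 6.62, 6.67 and 6.29 outside at 24 h, which overlap, with a difference of 0.12 (adjusted p = 0.663 by limma). At 48 h it had 6.76, 6.68 and 6.17 against 7.01, 7.35 and 7.13, a difference of -0.63 (SE 0.17, adjusted p = 0.0123 by limma). This call was lost without outside replicate 2 at 48 h (adjusted p = 0.0553). The upstream sequences of H3c14 and H3c15 were the most alike of the 78 pairs, with 235 of 265 aligned positions identical (88.7%). That of H3c15 (chr3:96239128-96239377, minus strand, 5′ to 3′) is shown because it holds none of the searched motifs, so that it has no capitals, while H3c15 had the largest decrease after that of H4bc24.
H3c15: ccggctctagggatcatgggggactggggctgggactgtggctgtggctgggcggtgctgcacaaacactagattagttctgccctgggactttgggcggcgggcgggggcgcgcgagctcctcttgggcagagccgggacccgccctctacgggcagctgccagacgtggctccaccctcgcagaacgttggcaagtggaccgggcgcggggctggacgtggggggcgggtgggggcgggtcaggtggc

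Of the 2 H4 genes counted here, H4c9 and H4c8, 1 was lower at each time, against 13.6% and 22.3% of all tested genes. With 2 genes, no result for the H4 family is drawn. H4c9 (Hist1h4i) was lower at both times, with differences of -0.54 (SE 0.16, adjusted p = 0.0219 by limma) and -0.84 (SE 0.16, adjusted p = 0.00128). Its values were 7.06, 7.01 and 7.13 in spheres and 7.49, 7.70 and 7.61 outside at 24 h, and 6.93, 7.12 and 6.59 against 7.48, 7.99 and 7.69 at 48 h, without overlap. H4c11 (Hist1h4j) was above 2.77 on the 48 h outside arrays alone, at 2.82, 3.44 and 3.37. The other 9 arrays were below that level, so its difference of -0.83 at 48 h becomes at least 0.43 lower when the in-sphere arrays are set to the level. It was tested only because of the outside arrays, and no call is drawn from it. H4c8 (Hist1h4h) had -0.22 and -0.33 and did not pass the test (adjusted p = 0.270 and 0.0790 by limma).

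The somatic linker histone H1f2 (Hist1h1c) is one of the H1 proteins that bind DNA between nucleosomes. Its values were 10.58, 10.73 and 10.76 in spheres and 11.06, 10.66 and 10.96 outside at 24 h, which overlap, with a difference of -0.21 (adjusted p = 0.289 by limma). At 48 h they were 10.58, 10.79 and 10.95 against 11.21, 11.12 and 11.17, a difference of -0.40 (SE 0.13, adjusted p = 0.0345 by limma). This call did not last when each array was centred on its median (-0.28, adjusted p = 0.279 by limma). Centring shifts every 48 h in-sphere difference by 0.12. H1f4 was below the level on all arrays but 1: it stood at 5.56 on in-sphere replicate 3 at 48 h, against 2.29 to 2.72 on the other 11.

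**Figure D2:**
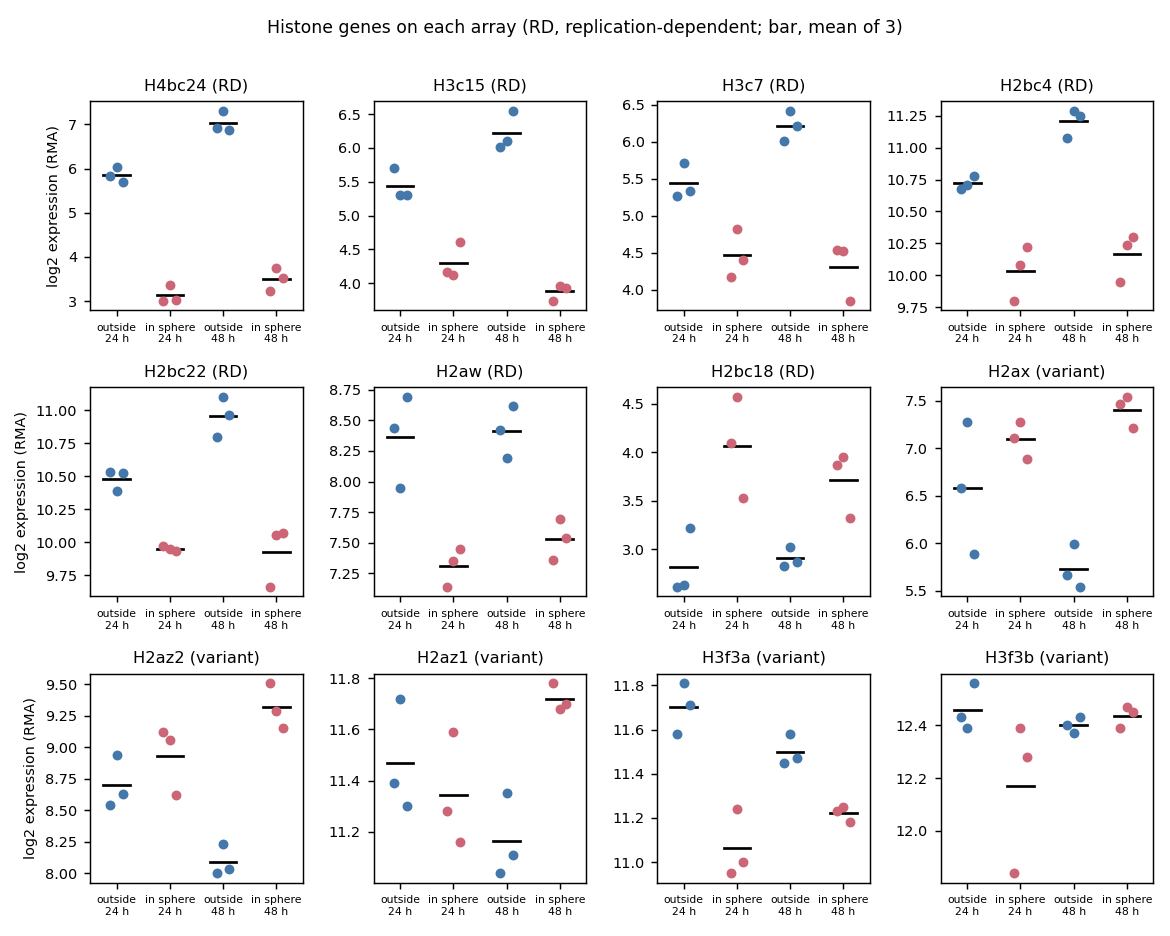
The log2 expression (vertical axis, each panel with its own range) is plotted for every array of the 4 groups for 7 replication-dependent and 5 variant genes, with a bar at the mean of 3. The in-sphere and outside points of H4bc24, H3c15, H3c7, H2bc4, H2bc22, H2aw and H2bc18 do not overlap within either time, and those of H2ax, H2az1 and H2az2 overlap at 24 h but not at 48 h.

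Most core variants can take the place of the canonical histones outside replication, while H2ax also gives an mRNA of the replication-dependent kind. H2ax, whose phosphorylated protein marks DNA breaks, had 7.11, 7.28 and 6.89 in spheres and 6.58, 7.28 and 5.89 outside at 24 h. The outside arrays spread over the in-sphere ones, and the difference of 0.51 did not pass the test (SE 0.27, adjusted p = 0.197 by limma). Without outside replicate 2 at 24 h, which had the value of 7.28, it was 0.85 and passed (adjusted p = 0.015 by limma). At 48 h H2ax had 7.47, 7.54 and 7.21 in spheres and 5.66, 5.99 and 5.54 outside. It was then 3.20-fold higher (log2 difference 1.68, SE 0.27, adjusted p = 4.87e-04 by limma).

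H2az1 and H2az2 encode the isoforms of H2A.Z, the variant found at nucleosomes beside transcription start sites. H2az2 had 9.12, 9.06 and 8.62 in spheres and 8.54, 8.94 and 8.63 outside at 24 h, which overlap (difference 0.23, adjusted p = 0.337 by limma). At 48 h it had 9.51, 9.29 and 9.15 against 8.00, 8.23 and 8.03, and was 2.35-fold higher (log2 difference 1.23, SE 0.16, adjusted p = 1.07e-04 by limma). H2az1 had 11.28, 11.59 and 11.16 in spheres against 11.39, 11.72 and 11.30 outside at 24 h, and 11.78, 11.68 and 11.70 against 11.04, 11.35 and 11.11 at 48 h. Its difference was -0.13 at 24 h (adjusted p = 0.593 by limma) and 0.55 at 48 h (SE 0.15, adjusted p = 0.0114). The upstream sequence of H2az2 (chr11:6444444-6444693, minus strand, 5′ to 3′, GRCm38.p6), from a gene that was higher at 48 h, has 4 CCAAT matches in capitals, as many as that of H2bc22, which was lower.
H2az2: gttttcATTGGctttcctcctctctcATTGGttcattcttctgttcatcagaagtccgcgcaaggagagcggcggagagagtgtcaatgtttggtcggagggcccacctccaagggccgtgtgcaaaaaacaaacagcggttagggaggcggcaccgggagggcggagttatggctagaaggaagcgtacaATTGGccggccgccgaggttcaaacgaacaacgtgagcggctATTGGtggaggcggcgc

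H3f3a and H3f3b encode the same H3.3 protein, which is deposited at transcribed genes in all phases of the cell cycle. H3f3a lay between 10.95 and 11.24 in spheres and had 11.58, 11.81 and 11.71 outside at 24 h. It was the only variant called lower, with a difference of -0.64 (SE 0.11, adjusted p = 0.00122 by limma). By 48 h the values were 11.23, 11.25 and 11.18 against 11.45, 11.58 and 11.47, a difference of -0.28 that did not pass (SE 0.11, adjusted p = 0.0734 by limma) although the groups did not overlap. H3f3b had 11.84, 12.39 and 12.28 in spheres and 12.43, 12.39 and 12.56 outside at 24 h (difference -0.29, adjusted p = 0.137 by limma). At 48 h it had 12.39, 12.47 and 12.45 against 12.40, 12.37 and 12.43 (difference 0.03, SE 0.14, adjusted p = 0.882 by limma), and the groups overlapped.

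The linker variant H1f10 had 3.85, 3.38 and 3.36 in spheres and 2.94, 3.51 and 3.31 outside at 24 h, and 3.38, 4.0 and 2.90 against 3.23, 3.11 and 2.96 at 48 h. The groups overlapped at both times, with differences of 0.28 and 0.32 (adjusted p = 0.460 and 0.340 by limma). The germ-line H1f6, H1f7 and H1f8 stayed between 2.25 and 3.12 on the 12 arrays, and of the 2 tested 0 were called at either time by limma (0 at unadjusted p under 0.05). Among histone genes outside the family symbols, Macroh2a1, the macroH2A variant, had 9.88, 10.04 and 10.23 in spheres and 9.85, 9.93 and 9.95 outside at 24 h, and 10.05, 10.16 and 10.10 against 9.51, 9.63 and 9.70 at 48 h. Its differences were 0.14 (adjusted p = 0.413 by limma) and 0.49 (adjusted p = 0.00494). Cenpa, the centromeric H3 variant, had 0.44 (adjusted p = 0.121 by limma) and 1.80 (adjusted p = 3.16e-05). Macroh2a2, H2aj and H2bu2 were also looked up and are not given here, so Macroh2a1 and Cenpa do not stand for such genes as a group.

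Arrays were also counted in place of tests, leaving out H4c11. Of the 15 other tested replication-dependent genes, 10 had all in-sphere values below all outside values at 24 h and 13 at 48 h. The shares over all tested genes were 21.5% and 31%. A single one, H2bc18, had them all above at each time, against 22% and 20.7%. Of the 5 variants, 2 had all in-sphere values below at 24 h, and at 48 h 3 had them above and 1 below.

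Outside the spheres, all 16 replication-dependent genes other than H4c11 were at or above their 24 h mean at 48 h. Their median was 0.30 against 0.03 over all tested genes. Of these, 1 passed the test: H4bc24 was higher by 1.17 (SE 0.17, adjusted p = 0.0187 by limma), a comparison in which 0.112% of genes were called higher and 0.224% lower. The call was lost in a fit on the outside arrays alone (adjusted p = 0.0562 by limma) and without 24 h replicate 3 (0.0817), 48 h replicate 1 (0.082) or 48 h replicate 3 (0.0594). A further look at unadjusted p under 0.05 gave 7 genes besides H4c11, all higher, with 6.27% of all genes higher and 4.56% lower on that rule. The 48 h arrays were all above the 24 h arrays for 8 of the 15 tested genes other than H4c11, against 13.4% of all tested genes. The differences were 0.78 for H3c15, 0.77 for H3c7, 0.48 for H2bc4 and 0.47 for H2bc22, none of which passed after adjustment (adjusted p = 0.111 to 0.169 by limma).

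Outside the spheres the 5 variants were all below their 24 h mean at 48 h with a median of -0.31, and 0 passed the adjusted test by limma. At unadjusted p under 0.05 there were 2, H2ax (-0.86, adjusted p = 0.237) and H2az2 (-0.62, adjusted p = 0.146). In spheres, 0 of 12488 genes were called between times by limma (1341 at unadjusted p under 0.05, and 15 called with the replicate number as a block). The median was 0.01 for all 17 replication-dependent genes and 0.32 for the variants, of which 5 of 5 were above 0.

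The change of the in-sphere difference from 24 h to 48 h was tested directly, and 0 of 12488 genes were called by limma (1534 at unadjusted p under 0.05, and 65 with the replicate block, 0 of them members). Without H4c11, the replication-dependent genes had a median change of -0.33 with 13 of 16 below 0. The variants had a median change of 0.68 with 5 of 5 above 0. Unadjusted p was under 0.05 for 6 replication-dependent genes besides H4c11, all with a lower difference at 48 h, and for 4 variants, all with a higher one, where 8.39% and 3.89% of all genes were so. The change was -1.20 for H3c15 (adjusted p = 0.127 by limma), 1.17 for H2ax (adjusted p = 0.253) and 1.00 for H2az2 (adjusted p = 0.148). H2az2 passed with each array centred on its median (1.18, adjusted p = 0.0369 by limma) and with array weights (0.92, adjusted p = 0.0362). Both comparisons at 24 h and 48 h enter this change, so it shares its arrays with them.

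Some members were read by more than 1 probe set, and these were compared. All 3 probe sets of H2aw were lower in spheres, with differences of -1.05, -1.22 and -1.42 at 24 h and -0.88, -1.05 and -1.35 at 48 h. The second probe set of H2bc22 was lower at both times, with differences of -0.41 (adjusted p = 0.027 over 29622 probe sets by limma) and -0.77 (adjusted p = 0.000464). For H3c14 the second probe set differed from the one used: it was lower, with differences of -0.75 at 24 h (adjusted p = 0.0193 by limma) and -2.33 at 48 h (adjusted p = 7.2e-06), where the one used had 0.12 and -0.63, so that its direction at 24 h depended on the probe set. A pair of probe sets that carry the symbols of both H2ac18 and H2ac19, so that neither gene can be named, was lower at both times, with differences for the brighter set of -0.51 at 24 h (adjusted p = 0.0126 by limma) and -0.94 at 48 h (adjusted p = 1.82e-04).

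Some second probe sets had no such call. That of H3c1 had -0.10 at 24 h and 0.20 at 48 h (adjusted p = 0.894 and 0.729 by limma), with 4.73 on in-sphere replicate 3 at 48 h against 2.71 to 3.58 on the other arrays. That of H2az2 had 0.14 and 0.27 (adjusted p = 0.646 and 0.267 by limma), where the one used was called higher at 48 h. That of H1f2 had -0.33 at 48 h (adjusted p = 0.126 by limma), where the one used was called lower. That of H3c4 had -0.40 at 24 h (adjusted p = 0.0973 by limma) and 0.04 at 48 h, where the one used was called lower at 24 h. The second probe set of H3f3a was lower at 24 h as well, with a difference of -0.55 (adjusted p = 0.00534 by limma). A brighter probe set that carries the symbols of both H3f3a and its pseudogene H3f3a-ps2 had -0.31 at 24 h and did not pass (adjusted p = 0.0745 by limma). Replication-dependent histone genes of the same family are often close copies of each other. The probe sets used for H3c1 and H3c14 carry the array maker's mark for probes shared by several transcripts. So does the H2aw probe set with -1.22 at 24 h. The second probe set of H2bc22 and the brighter set of H2ac18 and H2ac19 carry the mark for probes that may also bind other sequences. The values of all these probe sets may therefore hold signal of other copies.

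**Figure D3:**
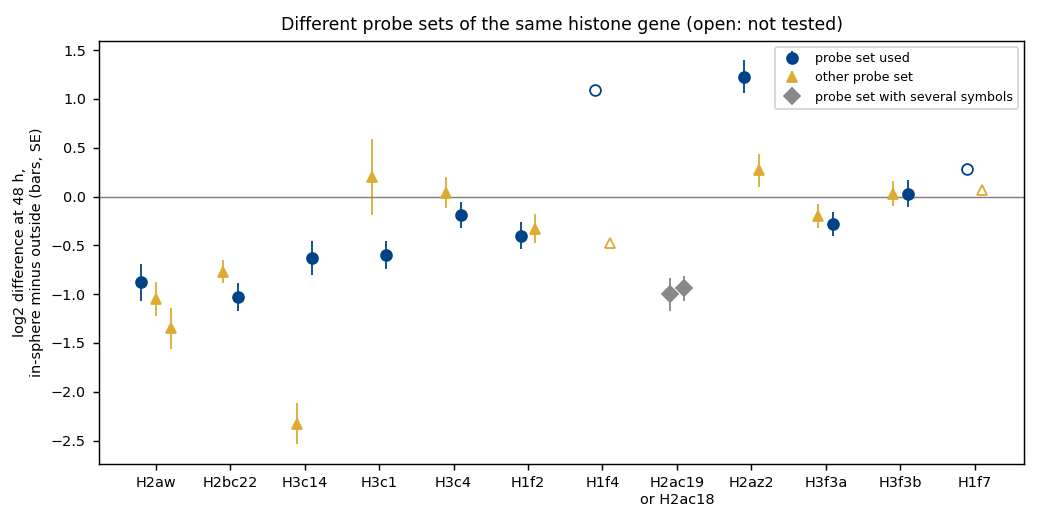
The log2 difference of in-sphere minus outside macrophages at 48 h (vertical axis, bars for the standard error) is plotted for genes with more than 1 probe set, with circles for the probe set used, triangles for the others and diamonds for probe sets with several symbols. Both points of H3c14 lie below 0 at -0.63 and -2.33, while H2az2 has 1.23 for the set used and 0.27 for the other.

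Genes of DNA replication, the process that replication-dependent histones serve, were mostly higher in spheres. Of 32 measured genes, 27 were higher and 1 lower in spheres at 24 h (median 1.35), and 29 higher and 0 lower at 48 h (median 1.72). Of all tested genes, 15.8% were higher and 13.6% lower at 24 h, and 15.2% higher and 22.3% lower at 48 h. Mcm5, a subunit of the replicative helicase, was higher by 1.95 (SE 0.27, adjusted p = 2.17e-04 by limma) and 2.54 (SE 0.27, adjusted p = 2.15e-05), and Tk1, thymidine kinase, by 1.88 (SE 0.23, adjusted p = 1.18e-04) and 2.82 (SE 0.23, adjusted p = 4.36e-06). The 1 gene lower at 24 h was Pcna, the sliding clamp of the polymerase, named after its values were seen (-0.35, SE 0.12, adjusted p = 0.0403 by limma). Of 14 mitosis genes, to be set against the same shares, 11 were higher at 24 h and 14 at 48 h, with 0 lower and medians of 1.05 and 2.61. Bub1, a kinase of the spindle checkpoint, was higher by 1.78 (SE 0.30, adjusted p = 9.69e-04 by limma) and 3.16 (SE 0.30, adjusted p = 1.18e-05). The medians of the lists and of the histone classes are set side by side without a test.

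**Figure D4:**
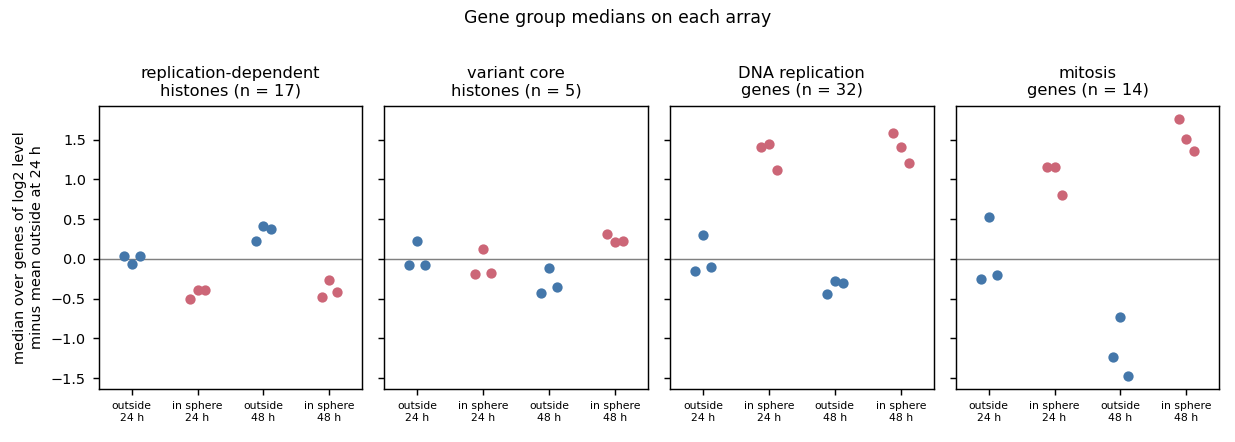
The median over genes of the log2 level minus the mean of the 24 h outside arrays (vertical axis) is plotted on each array for 17 replication-dependent histone genes, 5 core variants, 32 DNA replication genes and 14 mitosis genes. The replication-dependent median lies between -0.51 and -0.27 on the 6 in-sphere arrays and between -0.07 and 0.41 on the 6 outside arrays, while DNA replication lies between 1.12 and 1.58 on the in-sphere arrays.

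On single arrays, the replication-dependent median was -0.51, -0.39 and -0.39 in spheres at 24 h and -0.48, -0.27 and -0.42 at 48 h, relative to the mean of the 24 h outside arrays. Outside it was 0.03, -0.07 and 0.03 at 24 h and 0.22, 0.41 and 0.38 at 48 h. The in-sphere and outside arrays did not overlap. The variant median was -0.19, 0.12 and -0.18 in spheres at 24 h and 0.31, 0.21 and 0.23 at 48 h, against -0.08, 0.23 and -0.08, and -0.43, -0.12 and -0.36 outside, so that it overlapped at 24 h alone.

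Genes that make and process histone mRNA were called in both directions. Of 13 measured genes, 2 were higher and 1 lower at 24 h, where 15.8% of all tested genes were higher and 13.6% lower, and 4 were higher and 1 lower at 48 h, where 15.2% were higher and 22.3% lower. The counts at 24 h are close to or below the shares over all genes. Slbp, which binds the stem-loop of replication-dependent mRNAs, was higher by 0.43 (SE 0.13, adjusted p = 0.0294 by limma) and 0.88 (SE 0.13, adjusted p = 3.27e-04). Eri1, an exonuclease that acts on the stem-loop, was higher by 0.59 (adjusted p = 0.0169 by limma) and 0.57 (adjusted p = 0.0166). Lsm10, a component of the U7 snRNP that cuts the 3' end, was lower, with differences of -0.56 (SE 0.14, adjusted p = 0.00971 by limma) and -0.91 (SE 0.14, adjusted p = 3.16e-04). Casp8ap2, which takes part in histone mRNA transcription and 3' processing, had 0.09 at 24 h (adjusted p = 0.631 by limma) and was higher by 0.49 at 48 h (SE 0.11, adjusted p = 0.00432). Npat, the transcription factor of the histone clusters, had 0.22 at both times and did not pass (adjusted p = 0.344 and 0.296 by limma).

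Of 15 measured histone chaperones and deposition genes, 5 were higher and 2 lower at 24 h, against 15.8% and 13.6% of all tested genes, and 7 higher and 1 lower at 48 h, against 15.2% and 22.3%. The count lower at 24 h is near the share over all genes, and that at 48 h below it. Chaf1b, a subunit of the assembly factor that works at the fork, was higher by 1.20 (SE 0.19, adjusted p = 5.08e-04 by limma) and 1.38 (SE 0.19, adjusted p = 1.27e-04). Asf1b, an H3-H4 chaperone, had 0.55 at 24 h (adjusted p = 0.0799 by limma) and was higher by 2.00 at 48 h (SE 0.22, adjusted p = 2.8e-05). Anp32e, which removes H2A.Z, was higher by 0.70 (SE 0.15, adjusted p = 0.00409 by limma) and 1.40 (SE 0.15, adjusted p = 2.56e-05). Hjurp, the chaperone of Cenpa, was lower at 24 h, with a difference of -1.02 (adjusted p = 0.00956 by limma).

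Some markers of other cells moved with the same comparison, and their part in the histone results was not tested. All 14 measured macrophage markers were above 2.77 on all arrays of every group. Their summed linear signal was 30400 to 36400 in spheres and 33700 to 37700 outside at 24 h. At 48 h it was 32900 to 34900 against 37300 to 39300. Of these markers, 1 was called higher and 4 lower at 24 h, and 2 higher and 5 lower at 48 h. Their median differences were -0.34 and -0.31. Over all tested genes, 15.8% were called higher and 13.6% lower at 24 h, and 15.2% and 22.3% at 48 h. Of 23 neuroblastoma and neural markers, whose summed signal was 296 to 448 in spheres and 180 to 191 outside at 24 h, and 309 to 375 against 159 to 168 at 48 h, 9 to 11 were at or below 2.77 on all arrays of a group. Gata3, Chga, Tubb3, Snap25, Nefl, Nefm and Alk were so in all 4 groups. The median difference of the neural list was 0.02 at both times, with 13 genes above 0 and 10 below. Since 9 to 11 of the 23 genes were at or below 2.77, this median cannot show whether the expressed ones moved. Of 14 tested neural genes, 2 were called higher at 24 h and 3 at 48 h, with 0 lower. Over all tested genes, 15.8% and 15.2% were called higher. The largest neural difference was that of Gap43, 3.99 at 24 h and 4.41 at 48 h.

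Fibroblast markers summed to 1850 to 3800 in spheres against 417 to 680 outside at 24 h and to 2680 to 2770 against 456 to 741 at 48 h. Granulocyte markers summed to 20200 to 27500 against 45500 to 54600 and to 13200 to 21400 against 37200 to 49700. The 4 measured erythroid markers summed to 55.9 to 82.7 against 493 to 576 and to 34.7 to 76.3 against 94.9 to 132, and this difference lay in Hba-a1, an alpha-globin gene (-3.67 at 24 h and -1.82 at 48 h, adjusted p = 1.43e-04 and 0.00943 by limma). The other 3 had differences of -0.07 to 0.06 and -0.10 to 0.08, with 0 called. The RNA quality measure of the beta-actin control, log2 of its 3' minus its 5' probe set, was 0.481 ± 0.127 (SD, n = 3) in spheres and 0.285 ± 0.0535 (SD, n = 3) outside at 24 h. At 48 h it was 0.405 ± 0.0114 against 0.386 ± 0.0134 (SD, n = 3). For GAPDH, a second control, in-sphere arrays had 0.157 ± 0.275 at 24 h and outside arrays 0.0522 ± 0.108 (SD, n = 3), a difference within the spread. At 48 h GAPDH had 0.124 ± 0.0196 against 0.0794 ± 0.0235 (SD, n = 3). All in-sphere arrays lay above all outside arrays for beta-actin at 24 h and for GAPDH at 48 h. The groups overlapped for beta-actin at 48 h and GAPDH at 24 h. The part of this measure in the histone differences was not tested. Of the 12 arrays, in-sphere replicate 3 at 48 h had a mean log2 level of 4.06, below the 4.20 to 4.22 of the other 11. Without it, the 48 h medians were -0.70 for all 17 replication-dependent genes and 0.56 for the variants. With H4c11 left out of the counts, 11 members were then lower and 4 higher in place of 12 and 4.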

How the data were processed

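Gene expression was measured on 12 arrays in 4 groups of 3. The authors summarised each probe set as a log2 value by RMA, and the submitters' processing notes name Affymetrix Expression Console 1.1. RMA normalises the arrays together, so a difference in total RNA between groups is lost. The base was taken as 2 from the range of values, with array medians of 3.03 to 3.17. Of 45141 probe sets, 28898 had a single symbol, 551 several and 15692 none. Symbols followed RefSeq (GRCm38.p6), whose synonyms linked the older names used when the members were listed. Genes were tested with limma 3.58.1 (R 4.3.3) in 1 group-means model of all arrays (8 residual and 4.09 prior degrees of freedom), over 12488 genes above 2.77 on at least 3 arrays, with calls at a Benjamini-Hochberg adjusted p under 0.05. For arrays, their number limits the precision. Fold values are 2 to the power of the log2 difference.

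Members, lists and settings were chosen with earlier results of these data known, and nothing here is independent support for those results. Values on every array are given for the members with the smallest adjusted p of each class and for fixed genes; other tested probe sets are given where they disagree, and of each context list up to 4 called genes plus Slbp, Npat and Asf1b. The alternatives were the replicate block, no filter or one at the 50th percentile, median centring, a robust trend, array weights, the mean of a gene's probe sets, the compared groups alone and leaving out each array. Upstream sequences were aligned pairwise with Biopython 1.88.

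Replicate numbers were taken as pairing the arrays, since the series' design text calls each replicate an independent experiment on the same cultures. Deviations from group means correlated at 0.471, 0.473 and 0.419 between outside arrays of the same number, at 0.0215, 0.120 and 0.0813 between in-sphere and outside arrays at 24 h, and at 0.117, 0.0417 and 0.112 at 48 h. The fit without the block is the main one. On simulated data made for the 24 h comparison with 12488 genes, 75 of 100 genes changed by 1 and 100 of 100 changed by 2 on the log2 scale were found, with 14 false calls. The simulation changed 200 genes and drew its noise independently for each array, while 29.4% of genes were called at 24 h in the data. Its rates therefore need not hold for the data.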

Additional observations from a re-analysis of the deposited data

Results flagged for a closer look

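H3c14 and H2az1 had in-sphere differences of opposite sign at 24 h and 48 h in every replicate-number pair. The change of the difference from 24 h to 48 h was -0.75 for H3c14 (adjusted p = 0.249 by limma) and 0.68 for H2az1 (adjusted p = 0.230 by limma), so the test of the change did not pass for either. For H3c14 the pairs had 0.04, 0.10 and 0.22 at 24 h and -0.25, -0.67 and -0.96 at 48 h. The change of sign was seen with the probe set used, whose probes are shared by several transcripts. The gene's other probe set was called lower at both times (-0.75, adjusted p = 0.0193, and -2.33, adjusted p = 7.2e-06 by limma). For H2az1 they had -0.11, -0.13 and -0.13 at 24 h and 0.74, 0.33 and 0.59 at 48 h.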

How the results depend on the processing

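Of 28 calls of members in all comparisons, H4c11 left out, 19 held under each of 20 alternatives, 9 were lost under at least 1, and 0 changed sign. The counts of members that follow include H4c11 where it could be tested; a stricter filter or the loss of any outside array at 48 h leaves it untested. With the replicate number as a block, members called lower were 11 at 24 h and 13 at 48 h and members called higher were 1 and 4; outside the spheres 1 was higher and 0 lower over time, and the block changed no other call than that of H3c1 at 24 h. Leaving out 1 array at a time gave 1 to 2 members higher and 7 to 11 lower at 24 h, 3 to 4 higher and 9 to 13 lower at 48 h, and 0 to 1 higher over time outside. Array weights gave 2 higher at 24 h, 6 higher and 1 lower over time outside, and 1 higher for the change between times, as did median centring (1). A fit on the compared groups alone left 0 higher over time outside. The median of the replication-dependent genes over time in spheres, 0.01, was 0.08 with the mean of all probe sets, 0.16 with median centring and 0.06 without in-sphere replicate 3 at 48 h, an alternative chosen after seeing the data. The variant median over time outside, -0.31, was -0.23 with the mean of all probe sets. Median centring shifts all 48 h in-sphere differences by 0.12 and all time differences in spheres by 0.15. Besides the losses named with the results, at 24 h H3c11 lost its call without in-sphere replicate 1 or any outside replicate (adjusted p up to 0.118 by limma) and H4c9 without in-sphere replicate 1 or 2 or outside replicate 2 or 3 (up to 0.0736). H3c4 at 24 h lost it without in-sphere replicate 1 or 2 or outside replicate 1 or 3, with centring, with a robust trend and on the compared groups alone (up to 0.0912). At 48 h H3c11 lost it without in-sphere replicate 1 or 3 or outside replicate 2 or 3 (up to 0.0777), H1f2 also without in-sphere replicate 1 or 2 or any outside replicate, and H3c1 with the mean of its probe sets (0.480). Settings other than the one used gave 17 further calls over 12 member comparisons, of which 11 came with array weights; H3f3a at 48 h was called lower with array weights (adjusted p = 0.0387 by limma) and a robust trend (0.0185). In all of these cases the cause was not tested. Dim genes near 2.77 have compressed differences, which limits H4bc24 in spheres, H2bc18 outside, H2bc21, H4c8, H4c11 and the germ-line genes.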
